A study of Mus musculus with 4 samples.

Results

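The purinergic and adenosine receptor genes described here are 8 genes of 15935 listed in at least 1 library: the P2Y receptor genes P2ry2 and P2ry6, the P2X receptor genes P2rx4 and P2rx7, the adenosine receptor genes Adora2a, Adora2b and Adora3, and Entpd1, which encodes the ectonucleotidase CD39. The members were chosen by gene family with their FPKM levels and LPS folds in these same libraries already known, so what follows describes them. They were found by NCBI gene identifier, and a gene missing from a table was taken as 0. The cells were bone marrow-derived macrophages of C57BL/6 background, grown from the marrow of adult mice over 5 days in an M-CSF-conditioned medium, which turns marrow precursors into macrophages. The KO groups carry floxed Ezh2 (ezh2f/f) and the lysmcre transgene, which expresses Cre recombinase in myeloid cells, and the labels call them EZH2-/-. The WT groups are wild type. KO LPS and WT LPS cells received lipopolysaccharide (LPS), the bacterial ligand of Toll-like receptor 4, over 2 h, and KO NT and WT NT cells were not treated. Each of the 4 groups is 1 library, so differences could not be set against the spread between replicates, and p-values are not given. How many mice contributed to a library is not stated in the labels.

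The libraries held 5237782 expected counts in KO LPS, 5668826 in KO NT, 5635004 in WT LPS and 5678451 in WT NT. Ezh2 itself, a catalytic subunit of Polycomb repressive complex 2, was at 1.29 FPKM in KO LPS and 2.06 in KO NT, against 2.52 in WT LPS and 2.84 in WT NT, from 18, 31, 38 and 43 counts in that order. The gene-level values do not show which exons these reads cover, so they check the genotype labels only weakly. All 10 macrophage markers examined were listed, with summed levels of 3637, 3475, 3625 and 3251 FPKM in KO LPS, KO NT, WT LPS and WT NT. Cd14 was higher with LPS, and without it the other 9 summed to 2459, 3141, 2362 and 2927 FPKM in the same order. Mertk was at 6.76 FPKM in KO LPS and 25.3 in KO NT, and at 7.32 in WT LPS and 21.7 in WT NT. In bulk RNA, fewer cells of a type and less RNA per cell cannot be told apart. Levels are in FPKM, fragment numbers scaled to transcript length and library depth. A log2 fold is log2 of (FPKM + 1) over (FPKM + 1) and understates the folds of low genes, and a ratio is of FPKM without that addition. The interval after a ratio is an exact 95% Clopper-Pearson interval from the counts. It covers counting error and nothing of how animals or cultures vary. A gene counts as measured in a comparison when either library reaches 1 FPKM.

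Cells release ATP and other nucleotides when they are stressed or damaged. P2X receptors are ion channels opened by ATP, and P2Y receptors are G protein-coupled receptors for nucleotides. CD39 removes phosphates from extracellular ATP and ADP to give AMP, a second ectonucleotidase, CD73 (Nt5e), turns AMP into adenosine, and the adenosine receptors answer with G protein signals. In macrophages, ATP acting on the P2X7 channel is a classic trigger of the NLRP3 inflammasome, while adenosine receptors that raise cyclic AMP are known to restrain inflammatory cytokine output.

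Among members with a promoter entry, sequences are shown for those at least 2-fold higher or lower with LPS: Adora2b and P2ry2 (higher) and P2rx7 (lower). They are the 250 bases before an annotated start site, 5′ to 3′ on the gene's strand, from RefSeq on GRCm38.p6, at chr11:62248734-62248983 (plus strand), chr7:101012054-101012303 (minus strand) and chr5:122643677-122643926 (plus strand). Of the 8 genes, 6 matched an entry, and P2ry6 and Adora2a had none. Capitals mark matches to GGG, any 5 bases and CC, a loose form of the site of NF-kB, the transcription factor family activated through Toll-like receptors, or to TGANTCA (N is any base), the site of AP-1, on either strand.
Adora2b: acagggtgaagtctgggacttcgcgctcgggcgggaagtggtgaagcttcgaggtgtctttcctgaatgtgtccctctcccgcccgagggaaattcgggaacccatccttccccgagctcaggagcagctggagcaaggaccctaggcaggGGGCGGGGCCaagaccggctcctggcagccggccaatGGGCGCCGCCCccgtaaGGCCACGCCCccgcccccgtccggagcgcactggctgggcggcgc
P2ry2: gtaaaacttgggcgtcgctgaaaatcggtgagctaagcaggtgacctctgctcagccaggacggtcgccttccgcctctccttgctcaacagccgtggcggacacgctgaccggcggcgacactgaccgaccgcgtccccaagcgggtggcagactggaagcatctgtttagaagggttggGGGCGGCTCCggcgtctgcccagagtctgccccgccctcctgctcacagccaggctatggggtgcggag
P2rx7: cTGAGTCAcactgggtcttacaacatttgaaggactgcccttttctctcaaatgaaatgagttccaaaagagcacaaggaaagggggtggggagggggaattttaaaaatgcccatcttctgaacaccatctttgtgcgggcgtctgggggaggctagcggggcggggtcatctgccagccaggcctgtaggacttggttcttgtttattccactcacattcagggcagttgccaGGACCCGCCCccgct
The Adora2b sequence held 4 matches to the loose NF-kB form, with starts 99, 62, 61 and 45 bases before the start site, of which the pair at 62 and 61 overlap. The P2ry2 sequence held 1, at 69 bases, and the P2rx7 sequence 1 at 15 bases and 1 AP-1 match at 249 bases. Both genes have a second entry: that of P2ry2, which overlaps the first, held the loose form once, at 124 bases, and 4 GC boxes, and that of P2rx7 held 0 matches to any motif. The window of P2rx4 held 2 overlapping matches to the loose form, at 60 and 59 bases, and those of Entpd1 and Adora3 held 0, with 1 AP-1 match in Adora3. Several of these matches overlap GC boxes (GGGCGG), of which the sequences held 6 in Adora2b, 2 in P2ry2 and 2 in P2rx7. No match to the full cyclic AMP response element TGACGTCA was found in the windows of any of the 6 genes. Among 32851 promoter windows of the same length, 45.8% held the loose NF-kB form, 6.75% the AP-1 site, 32.7% a GC box and 1.55% the cyclic AMP element. The loose form is thus common, and a match is a description of letters, not of binding.

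With LPS, P2ry2, Adora2a and Adora2b were far higher and P2rx7 was lower, in KO and in WT cells alike. In each genotype, 3 of 7 measured members were at least 2-fold higher, where 6.61% of all measured genes were so in KO and 6.41% in WT. The only member at least 2-fold lower was P2rx7, where 15.1% of genes were so in KO and 17.2% in WT. Counting-error intervals of the ratio lay above 1 for those 3 genes in both genotypes, where 14.5% of all genes in KO and 13.4% in WT had such an interval, and below 1 for the other 4 measured members, where 57.1% in KO and 60.3% in WT had. These are values the choice of members used, and nothing is read from the counts. The median log2 fold of the 7 members was -0.34 in KO and -0.51 in WT, beside -0.42 and -0.46 over all measured genes. Median-ratio scaling, which lines libraries up on their typical gene, put the medians of all genes at -0.03 in both genotypes. Of the genes past 2-fold, 30.5% were higher with LPS in KO and 27.1% in WT, and 58.8% and 56.0% after that scaling. Adora3 was listed in no library and was not measured.

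**Figure D1:**
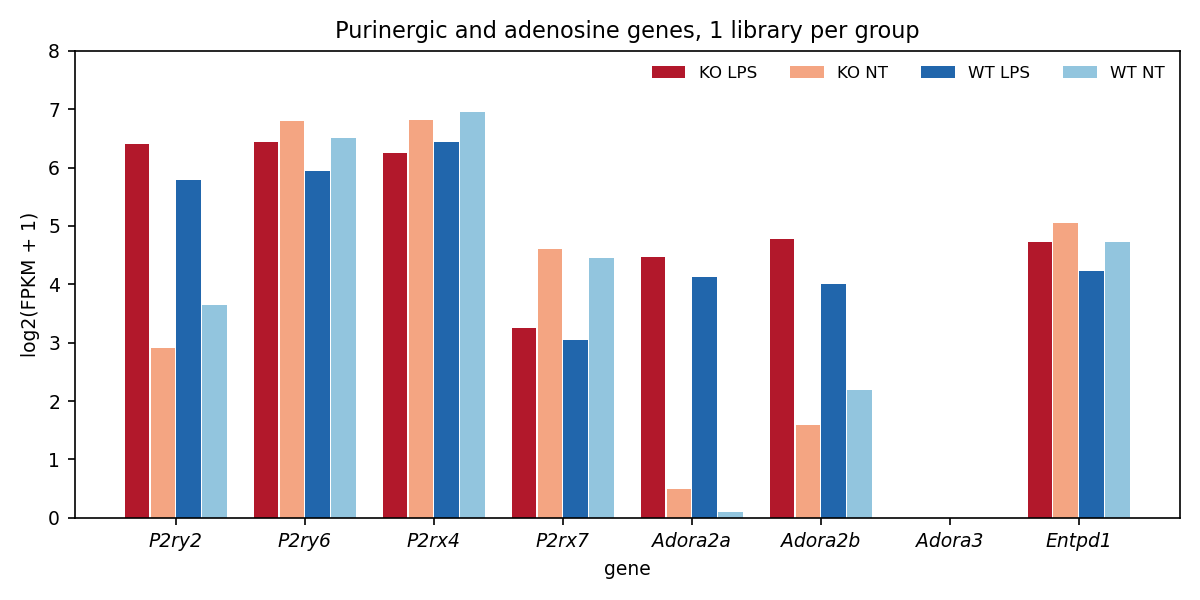
Level of each of the 8 genes as log2(FPKM + 1), with 1 bar per library in the order KO LPS, KO NT, WT LPS and WT NT; there are no error bars because each group is 1 library. P2ry2, Adora2a and Adora2b stand higher in both LPS libraries than in both NT libraries, P2rx7 stands lower in both, and Adora3, listed in no library, is drawn at 0.

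P2ry2 (gene ID 18442), on chromosome 7 from 100996568 to 101012053, encodes a receptor for ATP and UTP that couples to phospholipase C. It was at 84.0 FPKM in KO LPS and 6.47 in KO NT, from 1317 and 111 counts, and at 54.2 FPKM in WT LPS and 11.5 in WT NT, from 909 and 191 counts. Both LPS libraries lay above both NT libraries, with KO at the top with LPS and at the bottom without. The LPS to NT ratio was 12.98 in KO (10.7 to 15.9) and 4.72 in WT (4.04 to 5.55). The KO ratio over the WT ratio was 2.75, with an exact conditional interval of 2.13 to 3.56 from the 4 counts.

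P2ry6 (gene ID 233571, chromosome 7, 100937630 to 100975498), the gene of a receptor for UDP, lies next to P2ry2, with 21069 bases between the annotated genes, but was slightly lower with LPS in both genotypes, a direction that turns in KO under median-ratio scaling. P2ry6 was at 86.0 FPKM in KO LPS and 109.8 in KO NT, and at 60.8 FPKM in WT LPS and 89.8 in WT NT. The ratio was 0.783 in KO (0.717 to 0.856) and 0.677 in WT (0.612 to 0.749). Its log2 folds of -0.35 and -0.56 lay near the median of all genes, and with median-ratio scaling they became 0.07 in KO and -0.08 in WT, so the KO value changes sign. The P2ry2 level per P2ry6 level was 0.984 in KO LPS (0.902 to 1.07) and 0.0594 in KO NT (0.0484 to 0.0722), against 0.898 in WT LPS (0.811 to 0.995) and 0.129 in WT NT (0.110 to 0.151).

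Among the adenosine receptor genes, Adora2a (gene ID 11540, chromosome 10, 75316877 to 75334792) had a clear level with LPS and was near absent in untreated cells. Its product couples to the G protein that raises cyclic AMP. Adora2a was at 21.2 FPKM in KO LPS and 0.41 in KO NT, from 290 and 6 counts, and at 16.5 FPKM in WT LPS and 0.07 in WT NT, from 243 counts and 1 count. The ratio was 52.3 in KO (23.8 to 143.8). In WT it was 245 with an interval of 43.6 to 9715, since it rests on 1 count. The KO ratio over the WT ratio was 0.214 (0.00463 to 1.78), so a difference between the genotypes in the size of the Adora2a response was not detectable at this depth.

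Adora2b (gene ID 11541, chromosome 11, 62248984 to 62266452) encodes a receptor of the same kind with a lower affinity for adenosine. It was at 26.3 FPKM in KO LPS and 2.02 in KO NT, from 253 and 21 counts, and at 15.15 FPKM in WT LPS and 3.55 in WT NT, from 157 and 37 counts. As for P2ry2, KO was the highest library with LPS and the lowest without. The LPS to NT ratio was 13.04 in KO (8.35 to 21.4) and 4.28 in WT (2.97 to 6.30), and the first over the second was 3.05 (1.67 to 5.68). The balance between the 2 adenosine receptor genes also differed by state: the Adora2a level per Adora2b level was 0.812 in KO LPS (0.683 to 0.965) and 0.202 in KO NT (0.0668 to 0.518), against 1.10 in WT LPS (0.893 to 1.35) and 0.0191 in WT NT (0.000472 to 0.113).

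Adora3 (gene ID 11542, chromosome 3, 105904421 to 105908928), a receptor gene known for its expression in mast cells, was listed in none of the 4 libraries and taken as 0. The values used here do not show whether it was among the genes quantified. If it was, a count of 0 allows up to 3 counts, or 0.573 counts scaled to library depth (CPM) in KO LPS, 0.529 in KO NT, 0.532 in WT LPS and 0.528 in WT NT. Of 10 mast cell and basophil markers, Fcer1a, Tpsb2, Cma1 and Mcpt4 were listed in no library either and 6 were listed. Among those, Kit had 21 counts in KO LPS, 26 in KO NT, 29 in WT LPS and 34 in WT NT, and Hdc had 63, 8, 64 and 12 in that order. Adora1, the remaining adenosine receptor gene, had 1 count, in WT LPS.

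**Figure D2:**
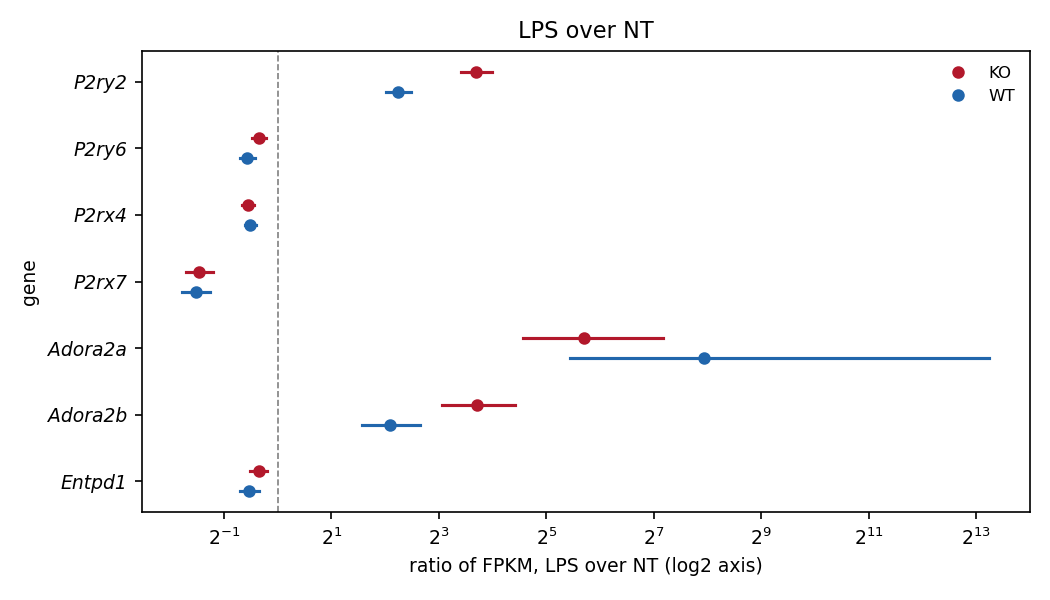
Ratio of FPKM, LPS over NT, on a log2 axis for 7 genes, KO above WT for each gene; points are the ratios and lines are exact 95% intervals for counting error only. The KO and WT intervals do not overlap for P2ry2 and Adora2b, and the WT interval of Adora2a is wide because WT NT holds 1 count.

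P2rx7 (gene ID 18439, chromosome 5, 122643927 to 122692336), the ATP-gated channel named above, was the member that stood lowest against NT with LPS, and the only one at least 2-fold lower. It was at 8.48 FPKM in KO LPS and 23.2 in KO NT, from 168 and 571 counts, and at 7.27 FPKM in WT LPS and 20.9 in WT NT, from 160 and 551 counts. The LPS and NT libraries did not overlap, and the genotypes were close within each state. The ratio was 0.364 in KO (0.305 to 0.434) and 0.349 in WT (0.291 to 0.417), and the KO ratio over the WT ratio was 1.04 (0.810 to 1.35). With median-ratio scaling the log2 folds on FPKM + 1 were -0.96 in both genotypes, just inside 2-fold, against -1.35 in KO and -1.40 in WT. The added 1 plays a part, since without it the log2 ratios before scaling were -1.46 in KO and -1.52 in WT.

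The deposited length of P2rx7 was also shorter with LPS, 3758 bases in KO LPS and 4300 in KO NT, and 3868 bases in WT LPS and 4614 in WT NT. Its row pools 5 RefSeq transcripts, whose spliced lengths in the GENCODE M21 annotation run from 712 to 4936 bases. FPKM divides by this length, so the gap is wider in CPM, at 32.1 in KO LPS and 100.7 in KO NT and at 28.3 in WT LPS and 97.0 in WT NT. On CPM the log2 folds were -1.62 in KO and -1.74 in WT. Levels of single transcripts are not in the gene-level rows used here. The deposited lengths of P2ry6, Adora2a, Adora2b and Entpd1 were the same in every library.

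**Figure D3:**
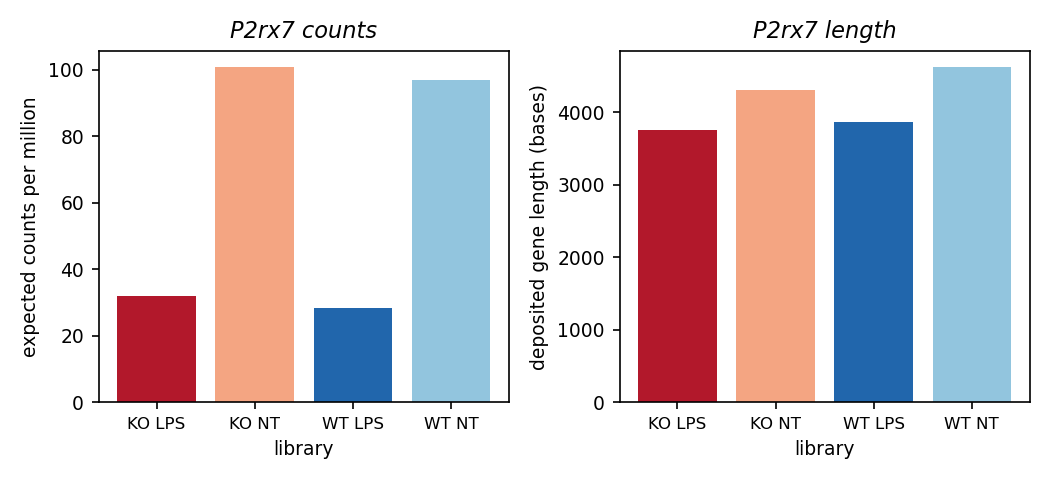
P2rx7 in each library, left in CPM and right as the deposited gene length in bases, with 1 bar per library and no error bars. Both are lower in KO LPS and WT LPS than in KO NT and WT NT.

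P2rx4 (gene ID 18438, chromosome 5, 122707518 to 122729739) encodes a related ATP-gated channel and starts 15181 bases beyond the end of P2rx7. It was one of the highest members throughout, at 75.3 FPKM in KO LPS and 111 in KO NT and at 85.5 FPKM in WT LPS and 122 in WT NT. The ratio was 0.679 in KO (0.628 to 0.733) and 0.701 in WT (0.652 to 0.753). These folds too lay near the median of all genes, and with median-ratio scaling the log2 folds were -0.13 in KO and -0.04 in WT. Since P2rx7 was lower by more, the P2rx4 level per P2rx7 level was 8.84 in KO LPS (7.51 to 10.5) and 4.75 in KO NT (4.32 to 5.23), against 11.7 in WT LPS (9.91 to 13.9) and 5.82 in WT NT (5.29 to 6.42). The expected counts of P2rx4, and of P2rx7 in part, are fractional, so they are estimates and not whole reads.

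Entpd1 (gene ID 12495), on chromosome 19 from 40612366 to 40741602, stood at 25.3 FPKM in KO LPS and 32.3 in KO NT, and at 17.6 FPKM in WT LPS and 25.5 in WT NT. The LPS to NT ratio was 0.785 in KO (0.703 to 0.876) and 0.693 in WT (0.611 to 0.786). With median-ratio scaling the log2 folds were 0.07 in KO and -0.05 in WT, so the sign in KO depends on the scaling. Nt5e, the CD73 gene that acts after CD39, had 1 count in KO LPS, 1 in KO NT and none in either WT library.

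Within a library, levels per length can be ordered. In the untreated libraries P2rx4 and P2ry6 led, level with each other in KO NT within counting error, followed by Entpd1, P2rx7, P2ry2, Adora2b and Adora2a. With LPS, P2ry2 joined the top group: in KO LPS it did not differ from P2ry6 beyond counting error (P2ry6 over P2ry2 1.02, 0.932 to 1.11). Adora2b and Entpd1 in KO LPS, and Entpd1, Adora2a and Adora2b in WT LPS, were neighbours whose ratios had intervals that included 1. P2rx7, above P2ry2, Adora2b and Adora2a in both NT libraries, was the lowest of the 7 genes in both LPS libraries.

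Between the genotypes, no measured member differed by 2-fold in either state, but the direction for P2ry2 and Adora2b was not the same in the 2 states. With LPS, 1.45% of all measured genes were at least 2-fold higher in KO and 1.12% at least 2-fold lower. The intervals of 5 of 7 members lay above 1 there (P2ry2, P2ry6, Adora2a, Adora2b and Entpd1), where 21.1% of all genes had such an interval, and that of P2rx4 lay below 1, where 9.50% had. The members' median log2 fold was 0.49, beside 0.08 over all genes. In untreated cells, 0.928% of genes reached 2-fold on the higher side in KO and 0.883% on the lower side. The intervals of 2 of 6 members lay above 1 (P2ry6 and Entpd1; 14.2% of all genes) and those of 3 below 1 (P2ry2, P2rx4 and Adora2b; 11.5% of all genes), at a median log2 fold of 0.01 beside 0.02.

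The KO to WT ratio of P2ry2 was 1.55 with LPS (1.42 to 1.69) and 0.564 without (0.442 to 0.716). That of Adora2b was 1.73 with LPS (1.42 to 2.13) and 0.569 without (0.316 to 0.997), the second from 21 and 37 counts and with an interval that ends close to 1. For both genes KO was thus above WT with LPS and below it without. The difference of their log2 LPS folds, KO minus WT, was 1.36 for P2ry2 and 1.35 for Adora2b. With a pseudocount of 5 in place of 1, the Adora2b difference was 0.92. P2ry2 and Adora2b were the 2 of 7 members with, at a pseudocount of 1, a difference of at least 1, where 1.90% of 11320 genes were at least that much larger in KO and 1.42% at least that much smaller.

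P2ry6 and Entpd1 were instead higher in KO in both states. P2ry6 had a KO to WT ratio of 1.41 with LPS (1.28 to 1.57) and 1.22 without (1.12 to 1.33), and Entpd1 1.43 with LPS (1.26 to 1.63) and 1.27 without (1.14 to 1.41). The LPS to NT ratio in KO over that in WT was 1.16 for P2ry6 (1.01 to 1.32) and 1.13 for Entpd1 (0.957 to 1.34). The interval of P2ry6 thus also lay above 1, though narrowly, and it was not recomputed with median-ratio scaling. Its difference of log2 LPS folds, KO minus WT, was 0.21, where the median over all measured genes was itself 0.05. P2rx4 was slightly lower in KO, at 0.880 with LPS (0.810 to 0.955) and 0.908 without (0.850 to 0.970). The intervals of P2rx7 included 1 in both states, at 1.16 with LPS (0.931 to 1.45) and 1.11 without (0.989 to 1.25). Adora2a had a ratio of 1.28 with LPS (1.08 to 1.53) and was below 1 FPKM in both untreated libraries.

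**Figure D4:**
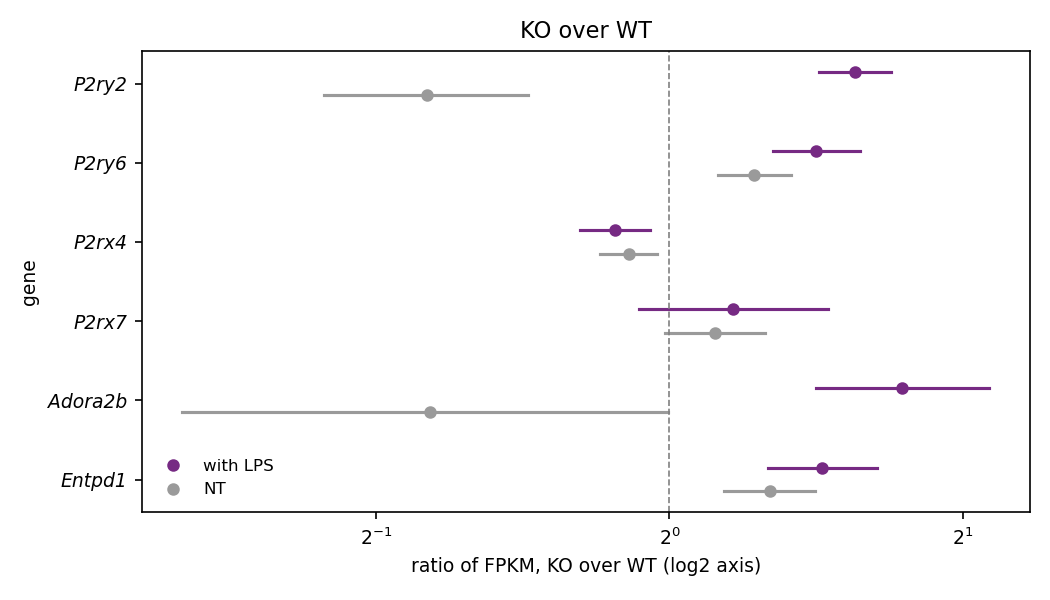
Ratio of FPKM, KO over WT, on a log2 axis for 6 genes, with LPS above NT for each gene; points are the ratios and lines are exact 95% intervals for counting error only. P2ry2 and Adora2b lie right of 1 with LPS and left of it in NT, while P2ry6 and Entpd1 lie right of 1 in both.

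Summed levels of markers of some other cell types differed between the genotypes too. The 10 neutrophil and precursor markers summed to 562 FPKM in KO LPS and 648 in KO NT, against 412 in WT LPS and 380 in WT NT. Most of that sum was S100a8 and S100a9. Of the 10, 9 were higher in KO than in WT with LPS and 8 without. Those lower in KO without LPS were Mpo (3.56 FPKM in KO NT, 4.24 in WT NT) and Ly6g. Of the 10 macrophage markers, 5 were higher in KO with LPS and 8 without. Over all measured genes the median log2 fold, KO against WT, was 0.08 with LPS and 0.02 without. The 8 fibroblast and stromal markers summed to 3.59 FPKM in KO LPS and 3.69 in KO NT, against 7.37 in WT LPS and 6.75 in WT NT. The 5 endothelial markers, mostly Kdr, summed to 6.85 and 8.29 FPKM in KO LPS and KO NT, against 10.8 and 13.8 in WT LPS and WT NT, with Tek at 0 throughout. Of these 5, 2 were higher in KO with LPS and 3 without, so the lower sums in KO rest on Kdr. The 7 megakaryocyte and platelet markers, mostly Pf4, summed to 75.7 and 81.4 FPKM in KO LPS and KO NT, against 69.3 and 59.6 in WT LPS and WT NT. Markers of T and NK cells were low, at 6.13 to 13.6 FPKM in sum, mostly Cd4, with Cd3e, Cd3g, Trac and Ncr1 at 0. Those of B cells (0.76 to 3.71), dendritic cells (2.98 to 5.25) and mast cells and basophils (2.01 to 5.96) were low too. Hdc was the highest mast cell and basophil marker in the LPS libraries. The part of any of these cell types in the results above was not tested.

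Genes of the related lists below were counted as past 2-fold on the log2(FPKM + 1) scale, and some low genes pass 2-fold by ratio alone. Of 12 other P2Y, P2X and adenosine receptor genes, 4 were measured in each comparison. P2ry1, a receptor for ADP, was the one at least 2-fold lower with LPS in both genotypes, at 1.83 FPKM in KO LPS and 5.57 in KO NT and at 0.73 in WT LPS and 2.90 in WT NT. Its KO to WT ratio was 2.51 with LPS (1.36 to 4.84) and 1.92 without (1.40 to 2.66). P2ry14, the gene of a receptor for UDP-glucose, was at 8.60 FPKM in KO LPS and 15.3 in KO NT, and at 8.78 in WT LPS and 14.6 in WT NT. The ADP receptor genes P2ry12 and P2ry13 stayed between 1.45 and 5.05 FPKM.

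Of 18 other ectonucleotidases and adenosine enzymes, 10 were measured with LPS, and their median log2 folds (-0.41 in KO, -0.46 in WT) equalled those of all genes to within 0.01. Enpp4, an ectoenzyme of the nucleotide pyrophosphatase family, was the 1 gene at least 2-fold higher on the log2(FPKM + 1) scale. It was at 5.23 FPKM in KO LPS and 1.96 in KO NT and at 9.57 in WT LPS and 2.72 in WT NT. Cd38, a low gene, had an LPS to NT ratio of 1.29 in KO (0.626 to 2.67) and 3.89 in WT (1.65 to 10.6). Pnp, purine nucleoside phosphorylase, which breaks down inosine made from adenosine, was at 161 FPKM in KO LPS and 103 in KO NT, and at 264 in WT LPS and 147 in WT NT. Enpp4 and Pnp were lower in KO than in WT with LPS, Enpp4 at a ratio of 0.547 (0.438 to 0.680) and Pnp at 0.609 (0.580 to 0.640). Entpd6, another family member of CD39, was also lower with LPS, at 2.36 FPKM in KO LPS and 5.42 in KO NT and at 1.77 in WT LPS and 6.05 in WT NT. Its ratio was 0.436 in KO (0.278 to 0.669) and 0.293 in WT (0.180 to 0.462), while on the log2(FPKM + 1) scale, which understates low genes, it passed 2-fold in WT alone. The expected counts of Pnp are fractional too, and since mice carry a close copy of the gene, Pnp2, its level is uncertain.

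Among 9 genes of nucleotide release channels and nucleoside transporters, 3 were at least 2-fold higher with LPS in both genotypes. Gja1, the connexin 43 gene, was at 11.6 FPKM in KO LPS and 0.28 in KO NT and at 5.52 in WT LPS and 0.68 in WT NT. Its KO to WT ratio with LPS was 2.10 (1.63 to 2.71). Slc28a2, a concentrative nucleoside transporter, was at 30.8 FPKM in KO LPS and 7.72 in KO NT and at 32.9 in WT LPS and 11.3 in WT NT. Calhm6, of a family of large-pore channels, was at 59.1 FPKM in KO LPS and 10.5 in KO NT and at 70.0 in WT LPS and 4.09 in WT NT. Slc29a3, a nucleoside transporter of lysosomes, was lower with LPS, at 9.28 FPKM in KO LPS and 36.4 in KO NT and at 10.8 in WT LPS and 41.9 in WT NT. On the log2(FPKM + 1) scale Slc29a3 was the 1 gene of the list at least 2-fold lower in KO, and 1 of 2 in WT. The list's medians were -0.62 in KO and -0.60 in WT.

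Downstream of these receptors, 27 of 31 genes of G proteins and cyclic AMP signalling were measured with LPS. One was at least 2-fold higher, Pde4b, a phosphodiesterase that breaks down cyclic AMP, at 98.9 FPKM in KO LPS and 2.57 in KO NT and at 78.6 in WT LPS and 2.06 in WT NT. In each genotype 3 were at least 2-fold lower, among them Rapgef3, a cyclic AMP sensor, and the G protein gene Gna11, and the list's medians were -0.37 in KO and -0.32 in WT. Of 14 genes of phospholipase C and calcium signalling 12 were measured, and 2 were at least 2-fold lower in each genotype, the calcium channel gene Orai1 and the transcription factor gene Nfatc2. The medians of that list were -0.26 in KO and -0.39 in WT. Nfatc2 was at 5.28 FPKM in KO LPS and 16.6 in KO NT, and at 3.05 in WT LPS and 12.5 in WT NT. Among 8 genes linked to the P2X7 inflammasome, 2 were at least 2-fold higher with LPS on the log2(FPKM + 1) scale. They were the sensor gene Nlrp3 (441 FPKM in KO LPS and 12.7 in KO NT, 432 in WT LPS and 13.7 in WT NT) and Il1b, which encodes the cytokine that inflammasomes mature. The list medians were 0.34 in KO and 0.42 in WT. Il18 had an LPS to NT ratio of 2.17 in KO (1.15 to 4.23) and 1.97 in WT (1.15 to 3.46). Kcnk6, a potassium channel gene, was at 11.1 FPKM in KO LPS and 20.5 in KO NT and at 12.4 in WT LPS and 26.3 in WT NT, past 2-fold lower in WT. P2rx7 thus stood lower in the same libraries in which Nlrp3 and Il1b stood higher.

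Between KO and WT, none of the 6 related lists had a gene past 2-fold on the log2(FPKM + 1) scale with LPS, and without LPS Calhm6 was the 1 such gene, higher in KO. With LPS the list medians were 0.29 for the other receptors, 0.08 for the ectonucleotidases, -0.15 for channels and transporters, 0.13 for G proteins and cyclic AMP, 0.13 for phospholipase C and calcium and -0.04 for the inflammasome genes, beside 0.08 over all genes. Without LPS they were 0.40, -0.14, -0.02, 0.10, 0.02 and 0.02 in the same order, beside 0.02 over all genes.

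**Figure D5:**
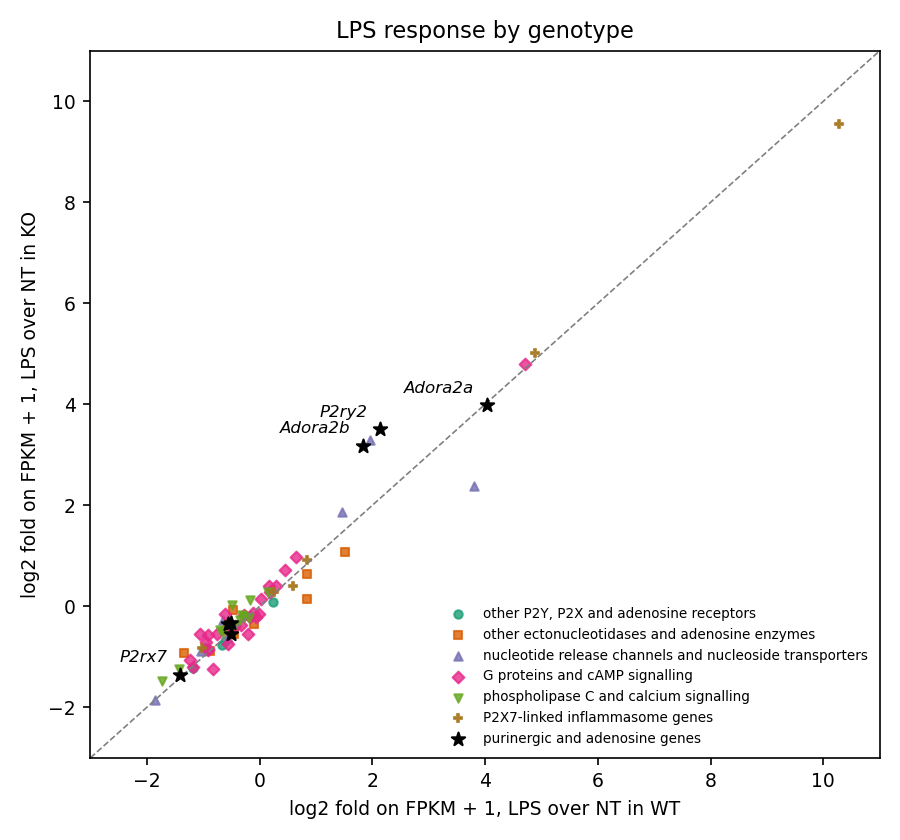
Log2 fold on FPKM + 1, LPS over NT, in KO (vertical axis) and WT (horizontal axis) for 7 purinergic and adenosine genes (stars) and the measured genes of 6 related lists; the dashed line marks equal folds. P2ry2 and Adora2b lie above the line at 3.51 and 3.18 in KO and 2.14 and 1.83 in WT, and P2rx7 lies at -1.35 and -1.40. Adora2a lies on the line at 3.98 and 4.03. Its place depends on the added 1, since its NT levels were 0.41 FPKM in KO and 0.07 in WT.

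The genes whose profiles over the 4 libraries were nearest to each member were found among 9197 genes of at least 50 counts in at least 1 library, by the Euclidean distance between mean-centred log2(FPKM + 1) values. Nearest to P2ry2 were Ptges, Klf7 and Trim13, at distances of 0.12, 0.17 and 0.36, and Ptges, the inducible prostaglandin E synthase, was at 12.4 FPKM in KO LPS and 0.24 in KO NT and at 7.20 in WT LPS and 0.91 in WT NT. Nearest to Adora2b were Gja1, Ptges and Klf7, at 0.23, 0.27 and 0.32. Nearest to Adora2a were Sdc4, Olr1 and Clcf1, at 0.24, 0.31 and 0.33. Csf2rb2 and Tacc3 were the first 2 for both P2ry6 (0.03 and 0.04) and Entpd1 (0.04 and 0.05). Setd7, Fam160b1 and Brd3 were nearest to P2rx7 at 0.04, 0.04 and 0.05, and Golt1b and Ftl1 to P2rx4 at 0.01 and 0.02. With 4 libraries and so many genes, short distances arise readily for profiles of small range, and they say nothing of shared control.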

How the data were processed

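The 4 libraries are HiSeq RNA sequencing of total RNA, per the labels' protocols, and were grouped by their titles. Bowtie, RSEM and mm10 are named, per the submitters' processing notes, with versions, annotation, strand setting and read filters not given in the sources used here. The authors deposited, for each gene, an expected count (an estimate of its reads that need not be whole), an FPKM scaled to length and depth, and a length that can differ between libraries.

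Genes absent from a table were set to 0. Symbols and coordinates came from RefSeq on GRCm38.p6 (15897 of 15935 identifiers matched), the assembly mm10 denotes. Folds are log2(FPKM + 1) differences, for genes where either library compared reached 1 FPKM. No test was run. Intervals of ratios used expected counts rounded to whole numbers (Clopper-Pearson; exact conditional for a ratio of ratios). Intervals and the floor of 3 counts cover counting error only, and they treat reads as independent. PCR reads are not independent molecules, so even counting error may be understated. The computation was tested on simulated counts. From each of 6 related lists at most 4 genes with the largest folds per comparison could be named, and the 3 nearest profiles per member, of which 1 is not reported here. The members, lists and rules were chosen with earlier results of these data known. Alternatives were pseudocounts of 0.1 and 5, no filter, 5 FPKM, median-ratio scaling, CPM, 3 counts for 0, and size rules of 1.5-fold and 3-fold. Python 3.11.15, scipy 1.17.1 and pandas 2.3.3 were used.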

Additional observations from a re-analysis of the deposited data

Results flagged for a closer look

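For P2ry2 and Adora2b, KO was above WT with LPS and below it without, so the same genotype contrast ran in opposite directions in the 2 states. The log2 folds of P2ry2 on FPKM + 1 were 0.62 with LPS and -0.74 without, and those of Adora2b were 0.76 with LPS and -0.59 without. With 1 library per group the difference was not tested. The intervals of the 4 ratios each excluded 1, that of Adora2b without LPS narrowly, and they cover counting error only.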

How the results depend on the processing

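No paired analysis was possible because each group has 1 library, and for the same reason no library could be left out. Of 34 fold values of members, 31 kept their sign under each of up to 7 other scales and filters that gave a value; Adora2b in KO against WT without LPS had 6, since neither library reached 5 FPKM. The exceptions were P2ry6 and Entpd1 with LPS in KO (0.07 each with median-ratio scaling, against -0.35 and -0.34) and the Adora2a difference between genotypes, which was -0.06, and -1.23 and 0.19 with pseudocounts of 0.1 and 5. On FPKM + 1, the count of members at least 2-fold lower with LPS, 1 in each genotype, became 0 in KO and 0 in WT with median-ratio scaling. It was likewise 0 and 0 under the 3-fold rule. Under the 1.5-fold rule, 2 members were higher in KO than in WT with LPS and 2 lower without LPS, against 0 and 0. The Adora2b difference of 1.35 became 0.92 with a pseudocount of 5. Over all genes, median-ratio scaling gave 1073 genes higher and 752 lower with LPS in KO, against 732 and 1668, and 1050 and 825 in WT, against 703 and 1888. With a pseudocount of 5 the lower genes were 399 in KO and 452 in WT, and with 0.1 the KO count was 2514. For KO against WT with LPS, higher and lower genes were 150 and 116, and 344 and 198 with a pseudocount of 0.1, 32 and 37 with 5, 65 and 62 at 5 FPKM, 96 and 66 with 3 counts for 0, and 232 and 116 on CPM (66.7% higher, against 56.4%). Without LPS they were 102 and 97, and 264 and 198, 22 and 23, 40 and 43, and 49 and 60 under the first 4 of these. For the difference of the LPS responses they were 215 and 161, and 537 and 395, 48 and 49, and 100 and 70 under the first 3, with 328 higher on CPM and 89 lower with 3 counts for 0. The cause of these shifts was not tested. Depth limits Adora2a and Adora2b without LPS, at 1 to 37 counts.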
